A study of Mus musculus with 6 samples.

Results

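Long-term haematopoietic stem cells (LT-HSC) carrying a knock-in allele of Idh1 were compared with LT-HSC of control littermates by DNA methylation. The rule took every autosomal position, given by chromosome, base and strand, with a coverage of at least 10 reads in both libraries. These were 724374 of the 942526 autosomal positions of the Control library and of the 839283 of the knock-in (KI) library, and they gave 30570 windows of 1000 bases with at least 5 positions. The 2 libraries are 2 of the 6 of the study, which also held both genotypes of short-term stem cells (ST-HSC) and of progenitors that are multipotent (MPP). All cells came from male C57BL/6 mice aged 7 to 10 months. KI mice were IDH1+/lsl VavCre+ and Control mice IDH1+/+ VavCre+, so both groups carried the Cre recombinase, which the Vav promoter drives in blood cells. The knock-in allele is therefore switched on in the blood lineage as a whole and not only in stem cells, and the labels do not name the amino acid change. Marrow of 6 mice was pooled for each library and LT-HSC were sorted as Lin- Sca+ Kit+ CD150+ CD48- cells. With 1 pool a side the spread between mice was not measured, no test between genotypes was possible, and every difference below is between 2 libraries. These libraries also ran on different sequencing lanes, so that effects of lane and genotype cannot be told apart.

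IDH1 is a cytosolic enzyme that makes 2-oxoglutarate, the co-substrate of the TET enzymes, which oxidise 5-methylcytosine and start its removal, and of the Jumonji histone demethylases. The mutant enzymes known from myeloid leukaemia turn 2-oxoglutarate into 2-hydroxyglutarate, which can inhibit these dioxygenases. In mammals most methylated cytosines lie in the dinucleotide CG (a CpG). CpG-rich gene starts are mostly unmethylated in blood stem cells, while gene bodies and the space between genes are mostly methylated. The assay, enhanced reduced representation bisulfite sequencing, reads CpG-rich restriction fragments after bisulfite has turned unmethylated cytosine into uracil, so that the share of reads with C is the methylation level in percent.

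The promoters below are shown because their measured CpGs differed between both libraries. Each runs from 250 bases before to 50 bases after a start listed by RefSeq on GRCm38.p6, the same build as mm10, and is written 5′ to 3′ on the gene's strand. Capitals mark the CpGs measured in both libraries on at least 1 strand. Rfx8, Kcnn1 and Gm51701 lie in runs of neighbouring windows described below, and Ddx4 is a germline gene. Tubb4a, Tbx1 and Kansl3 were chosen after their values were seen, from the largest differences among promoters of protein-coding genes. The conditions were at least 200 reads per library, at least 2 positions per strand and a mean difference in the same direction on both strands. The promoters shown lie at chr1:39720940-39721239 (Rfx8, minus strand), chr8:70856959-70857258 (Kcnn1, minus), chr17:57087551-57087850 (Tubb4a, minus), chr16:18588850-18589149 (Tbx1, minus), chr13:112652261-112652560 (Ddx4, minus), chr9:123924898-123925197 (Gm51701, plus) and chr1:36369132-36369431 (Kansl3, minus).
Rfx8: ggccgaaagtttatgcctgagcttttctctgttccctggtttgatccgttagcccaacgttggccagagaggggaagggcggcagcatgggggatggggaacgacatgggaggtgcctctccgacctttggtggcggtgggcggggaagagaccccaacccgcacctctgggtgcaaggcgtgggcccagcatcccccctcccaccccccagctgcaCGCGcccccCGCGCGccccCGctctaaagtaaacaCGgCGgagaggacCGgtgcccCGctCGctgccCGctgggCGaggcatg
Kcnn1: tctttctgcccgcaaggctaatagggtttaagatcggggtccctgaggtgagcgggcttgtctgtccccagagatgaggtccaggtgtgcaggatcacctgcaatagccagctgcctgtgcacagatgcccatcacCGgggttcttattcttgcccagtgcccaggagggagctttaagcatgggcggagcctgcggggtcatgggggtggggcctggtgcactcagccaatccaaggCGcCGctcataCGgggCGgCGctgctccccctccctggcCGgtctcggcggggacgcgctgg
Tubb4a: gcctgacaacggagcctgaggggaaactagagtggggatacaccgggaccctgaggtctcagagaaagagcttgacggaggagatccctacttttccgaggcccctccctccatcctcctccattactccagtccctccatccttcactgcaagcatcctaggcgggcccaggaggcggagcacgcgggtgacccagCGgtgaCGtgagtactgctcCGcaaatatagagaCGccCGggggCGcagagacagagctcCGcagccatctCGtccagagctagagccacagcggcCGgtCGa
Tbx1: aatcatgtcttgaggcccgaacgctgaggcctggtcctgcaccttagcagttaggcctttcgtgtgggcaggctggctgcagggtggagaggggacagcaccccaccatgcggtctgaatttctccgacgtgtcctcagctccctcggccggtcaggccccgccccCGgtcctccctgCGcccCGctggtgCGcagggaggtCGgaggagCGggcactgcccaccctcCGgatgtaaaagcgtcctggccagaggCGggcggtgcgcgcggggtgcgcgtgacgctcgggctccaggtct
Ddx4: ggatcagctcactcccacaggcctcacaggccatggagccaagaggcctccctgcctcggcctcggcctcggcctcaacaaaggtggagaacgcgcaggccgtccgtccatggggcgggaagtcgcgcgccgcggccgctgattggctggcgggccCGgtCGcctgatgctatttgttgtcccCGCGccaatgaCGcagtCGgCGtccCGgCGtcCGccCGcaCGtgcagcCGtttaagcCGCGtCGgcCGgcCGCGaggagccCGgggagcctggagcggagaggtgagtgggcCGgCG
Gm51701: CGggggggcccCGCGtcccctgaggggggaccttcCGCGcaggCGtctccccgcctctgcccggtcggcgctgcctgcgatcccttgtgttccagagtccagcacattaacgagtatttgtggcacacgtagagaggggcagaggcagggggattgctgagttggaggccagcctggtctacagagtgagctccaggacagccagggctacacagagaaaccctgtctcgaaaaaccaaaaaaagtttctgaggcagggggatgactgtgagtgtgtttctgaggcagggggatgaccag
Kansl3: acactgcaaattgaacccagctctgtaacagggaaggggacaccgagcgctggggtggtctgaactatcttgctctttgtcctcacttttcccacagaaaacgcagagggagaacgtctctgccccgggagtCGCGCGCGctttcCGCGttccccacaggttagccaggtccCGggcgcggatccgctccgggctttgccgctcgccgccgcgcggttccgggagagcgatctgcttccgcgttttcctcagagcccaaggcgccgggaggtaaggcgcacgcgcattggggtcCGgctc

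In the promoter of Rfx8, a member of the RFX family of DNA-binding factors, KI was higher at 21 of 22 positions. Control stood at 0 to 25.9% and KI at 6.67 to 46.4% over these positions, with means of 4.29 and 28.7%. The sole position that was lower in KI, on the forward strand 15 bases after the start, was at 17.3% in Control and 14.6% in KI, and the reverse strand of the same CpG went from 25.9 to 46.4%. Kcnn1 encodes a small-conductance calcium-activated potassium channel, and its promoter was higher in KI at 7 of 7 positions, from a mean of 4.25 to 32.9%. Its positions held as few as 11 reads in Control and 12 in KI. Positions close together can be covered by the same reads, so the positions counted here and in the next paragraph are not independent. Tubb4a, a beta-tubulin gene, was higher at 10 of 11 positions (means 10.0 and 42.8%), and Tbx1, a T-box transcription factor, at 10 of 13 (34.8 and 63.4%). In Tbx1 the strands differed: 67 bases before the start, KI minus Control was 49.4 points on the forward strand and -16.8 points on the reverse strand.

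Ddx4 encodes a germ cell RNA helicase, and its promoter was already highly methylated in Control. The mean of its 38 positions was 74.3% in Control and 90.0% in KI, with KI higher at 25 and lower at 8. Single CpGs of this promoter went in opposite directions on the 2 strands. At 67 bases before the start, the forward strand fell by 76.4 points, from 91.8% of 73 reads to 15.4% of 13 reads, while the reverse strand went from 48.1 to 94.8%. The forward positions with 13 or 14 KI reads carried the lowest KI depth of the promoter. Gm51701, a long noncoding RNA gene, went from 48.4% in Control to 5.77% in KI over 6 positions on 1 strand and was lower at each of them. Kansl3, a subunit of the NSL histone acetyltransferase complex, went from 20.7 to 2.47% over 9 positions, and KI was lower at the 8 whose CpG lies whole in the printed bases.

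**Figure D1:**
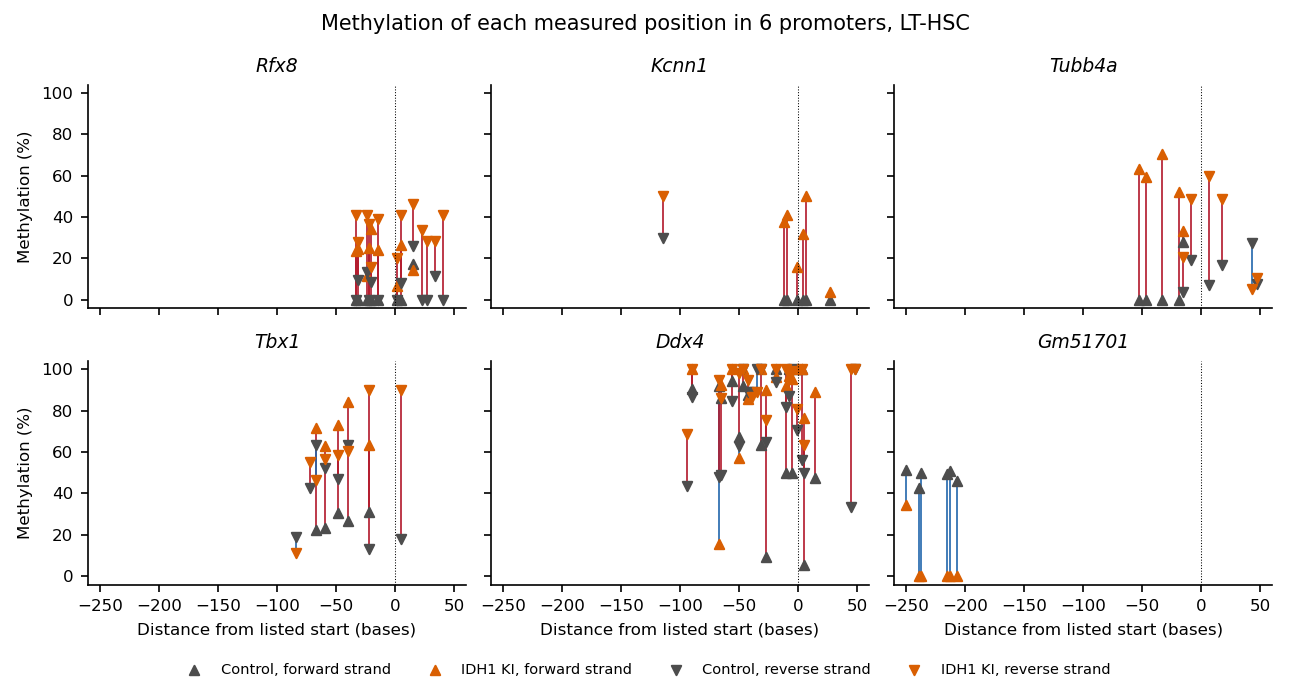
Methylation level (percent, vertical axis) of each position measured in both LT-HSC libraries, by distance in bases from the listed start (dotted line), in 6 promoters; grey is Control, orange is KI, upward triangles are the forward and downward triangles the reverse strand, and a line joins the pair of values of a position, red where KI is higher and blue where it is lower. KI lies above Control at 21 of 22 positions of Rfx8 and 7 of 7 of Kcnn1, below it at 6 of 6 of Gm51701, and on both sides in Ddx4. Positions close together can be covered by the same reads.

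Over all 7625 promoters with at least 5 positions, 71 were at least 10 percentage points higher in KI (0.931%) and 61 at least 10 points lower (0.8%). The higher promoters held a median of 17 CpGs in their 300 bases, the lower ones 21, and the 7493 others 27. Over the 31363 promoters in the table the median was 7 CpGs, and 94.75% held the motif CG, which reads the same on both strands. Promoters that were higher in KI had a median level of 7.84% in Control and 24.2% in KI. Those that were lower went from 18.2 to 3.17%. The promoters measured here were thus richer in CpGs than promoters at large, and calls in both directions fell on the less CpG-rich ones among them. However, the 52 partly methylated promoters without a call (class defined below) held a median of 16 CpGs. Their median levels were 35.33% in Control and 35.26% in KI. Fewer CpGs were therefore not particular to promoters that differed between the libraries.

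The Control library held 48966606 reads, as coverage summed over positions, and the KI library 53884467, with medians of 37 and 45 reads per position. Markers of cell types say little here, because methylation does not measure expression. Of 17 marker genes, 7 had a window. The starts of the stem cell genes Kit, Mecom, Hlf and Fgd5 stood at 0.544 to 4.27% in Control and at 1.92 to 4.11% in KI. The start of Klf1, an erythroid factor, was at 0.370 and 6.15%. Col1a1, a collagen gene of stromal cells, had no window at a start, and its window elsewhere was at 100 and 96.9%.

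The average level differed little between both genotypes, and its sign depended on how positions were weighted. The unweighted mean was 23.4% in Control and 23.6% in KI, a difference of 0.2002 points. Pooled over all reads, it was 21.97 and 18.0%, a difference of -3.97 points. When both libraries were given the same weights, the summed reads of both at each position, the levels were 19.8 and 19.8% and the difference 0.0252 points (weights chosen after seeing the data). The libraries differed in where their reads lay: KI had 1.34 times the reads of Control per position at levels of 0 to 5%, and 0.972 times at 95 to 100%. Positions covered in 1 library only followed the same order, with 218152 in Control at a mean of 60.04% and 114909 in KI at 34.1%.

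Most windows were alike in both libraries, and among those that differed more were higher in KI than lower. The difference was within 1 point in 35.2% of windows and within 5 points in 82.7%, with a median of 0. KI was at least 10 points higher in 1295 windows, which is 4.24% of all, and at least 10 points lower in 628, which is 2.05%. These windows are called higher and lower from here on. At 20 points there were 346 higher windows (1.13%) and 116 lower ones (0.379%), and at 50 points 5 and 3. Around the threshold the counts were closer to even: 200 windows were higher and 131 lower by 10 to 11 points, and 198 higher and 156 lower by 9 to 10 points. Windows with 4 positions, just outside the rule, were higher in 10.01% and lower in 6.56% of 7162 windows, against 9.04 and 4.54% of the 4756 windows with 5.

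The higher windows lay mainly at intermediate levels. Of the 2242 windows with a mean level of 20 to 80% over both libraries, called partly methylated, 702 were higher and 270 lower, and their median difference was 4.02 points. Control averaged 47.0% in them and KI 51.5%. A window under 5% cannot differ by 10 points, and 0 of the 15191 such windows were called. Because both libraries set this level, the windows were also chosen from the 4 libraries of ST-HSC and MPP, which share no library with LT-HSC. Of 1972 windows at 20 to 80% there, 559 were higher in KI LT-HSC and 185 lower, with a median difference of 3.44 points. Windows at 80 to 100% in those 4 libraries had 241 higher and 122 lower among 5996, and windows under 20% had 162 and 119 among 18183.

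Called windows were rarest at gene starts, which were also the least methylated. Windows within 1000 bases of a listed start were higher in 1.77% and lower in 1.08% of 14243. In gene bodies these shares were 6.84 and 2.87% of 7484, and outside genes 8.42 and 4.19% of 3767. Among partly methylated windows alone the places were closer together, with 27.4% higher at starts, 34.6% at other gene ends, 32.3% in gene bodies and 31.3% outside genes. Each of the 19 autosomes had more higher than lower windows. The ratio was widest on chromosome 19, with 50 higher and 15 lower, and narrowest on chromosome 16, with 29 and 18.

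**Figure D2:**
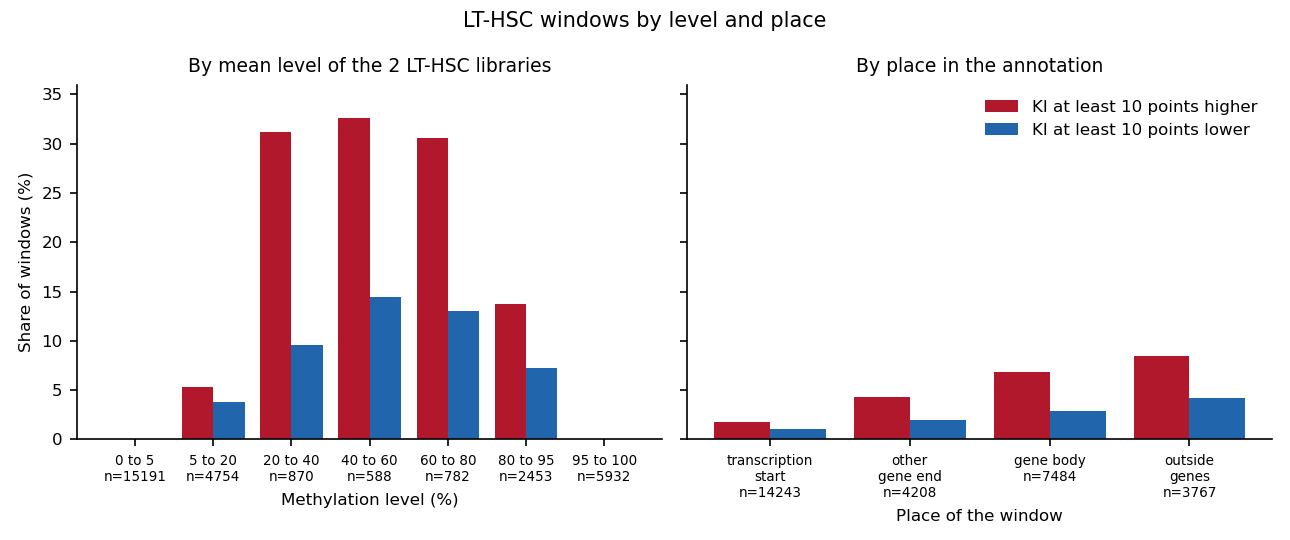
Share of LT-HSC windows (percent, vertical axis) at least 10 points higher (red) or lower (blue) in KI, by the mean level of both libraries (left) and by place in the annotation (right); n is the number of windows of each class. Red bars reach 31.2, 32.7 and 30.6% at levels of 20 to 40, 40 to 60 and 60 to 80%, against blue bars of 9.54, 14.5 and 13.04%, and both are lowest at transcription starts.

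Windows with few positions were called more often, and they were also more methylated. With 5 to 9 positions 7.38% of 13272 windows were higher and 3.89% lower, at a mean Control level of 59.6%. With at least 40 positions these shares were 0.245 and 0.0223% of 4483, at a mean Control level of 3.55%. Among partly methylated windows the higher share was 31.8% with 5 to 9 positions and 33.0% with 10 to 19. The 7641 windows with the fewest reads per position had 536 higher and 334 lower ones at a mean Control level of 52.6%, and the 7643 with the most had 196 and 63 at 20.8%. In 2844 windows KI had at least 2 times fewer reads than Control, with reads scaled to each library's total over the shared positions. Of these windows 247 were higher and 127 lower. Both strands hold the positions whose mean made the call, so agreement of their signs is favoured by that selection. Of 1017 higher windows with at least 2 positions on each strand, 827 were higher in KI on both strands and 378 by at least 10 points on both. Of 442 lower windows, 323 were lower on both strands and 117 by at least 10 points on both. The strands of a library come from the same pool of mice, so they are not replicates of the genotype.

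The 12 largest rises near protein-coding genes, under the conditions on reads and strands given under processing, spanned 40.5 to 52.8 points, and 11 of them lay in gene bodies. Kiss1r, the receptor of the peptide kisspeptin, had the largest. Its window on chromosome 10 from 79919001 to 79920000, in the gene body, stood at 16.3% in Control and 69.0% in KI over 11 positions. Pooled over 256 and 324 reads, summed over the 11 positions, the levels were 18.0% (Wilson 95% interval 13.8 to 23.1) and 62.3% (57.0 to 67.4). These intervals cover counting error only. They take the counts as independent, though a read that spans several positions counts at each, so they can be too narrow. The difference was 26.9 points on the forward and 74.3 points on the reverse strand. A rise on both strands was a condition of the choice, and the amounts were unequal.

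Dedd2, a death-effector domain protein, was at 27.9% in Control and 77.1% in KI (chromosome 7 from 25203001 to 25204000, gene body, 9 positions). Mex3a, an RNA-binding protein, had 24 positions, the most among these windows, and stood at 43.5 and 86.5% (chromosome 3 from 88536001 to 88537000, gene body). Its strands were alike, with differences of 50.5 and 39.2 points. Camk2g, a calcium- and calmodulin-dependent kinase, went from 22.7 to 70.02% on 1930 and 1131 reads (chromosome 14 from 20737001 to 20738000, gene body). Anp32a, a nuclear phosphoprotein and phosphatase inhibitor, was at 31.7 and 77.7%. Ehbp1 (24.2 and 73.8%), Ltbp3 (24.1 and 73.1%), which encodes a protein that binds latent TGF-beta, H2-Oa (29.6 and 73.0%), Kbtbd11 (30.6 and 73.8%), the pannexin gene Panx2 (32.0 and 73.8%), Tapt1 (53.0 and 93.8%) and the kinase gene Dclk1 (45.4 and 85.9%) complete the 12. Kbtbd11 rested on its forward strand, with 58.9 points there and 4.02 on the reverse strand. All 12 thus started from partly methylated or lower levels in Control and ended at 69.0 to 93.8% in KI.

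The 11 falls reported, from the 12 largest, were smaller, from -23.6 to -40.4 points, and 4 of them lay at gene starts. Asb4, a gene of the imprinted Peg10 cluster that encodes an ankyrin repeat protein, went from 44.2% in Control to 3.76% in KI at its start (chromosome 6 from 5383001 to 5384000, 5 positions, 371 and 409 reads). Its strands differed by -45.0 and -37.4 points. Tyk2, a Janus kinase of cytokine receptors, went from 89.4 to 54.4% in its gene body over 13 positions, with 1898 reads in Control and 326 in KI. Cldn4, a tight junction claudin, was at 94.5 and 66.5% at its start. All 11 falls were lower on both strands, which was a condition of their choice.

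Zfp760, a zinc finger gene, stood at 32.8 and 6.40% at its start, mostly on the reverse strand (-56.0 against -6.58 points). A window at the start of Kcnq1ot1, the noncoding RNA of the imprinted Kcnq1 region, was at 32.4 and 6.38% over 11 positions. Hspa12a (30.0 and 3.84%), Bend6 (28.3 and 3.14%), Hoxc6 (40.9 and 16.9%), Impact (35.1 and 11.53%, an imprinted gene with 18 positions), Exoc3l4 (86.6 and 54.3%) and Fignl2 (63.4 and 34.5%) were the others. Fignl2 differed by -11.96 points at the 2 of its 16 positions with a coverage of at least 20. The falls thus came from high levels as well as from intermediate ones, and 5 of the 11 ended under 7% in KI.

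In 5792 windows fewer than 5 positions were covered in all 6 libraries. Among these, the largest rises under the same conditions were at H2-Oa, Col4a1 (32.6% in Control and 69.5% in KI), Plekha7 (63.1 and 98.1%), Shisal1 (17.4 and 50.1%) and Zfp30 (52.4 and 83.9%). Plekha7 was higher by 52.0 points on the reverse strand and by 0.803 on the forward strand. The largest falls were at Fignl2, Zfp760, Kcnq1ot1, Caln1 (64.6 and 44.1%) and Celf4 (97.7 and 78.7%).

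Neighbouring windows called in the same direction were few, with 17 runs of higher windows and 9 of lower ones. The longest run covered 3 windows at Mn1, a transcriptional co-regulator and oncogene of myeloid leukaemia, on chromosome 5 from 111418001 to 111421000. Over its 115 positions the level was 28.6% in Control and 46.3% in KI, on 5941 and 7409 reads. The windows differed by 11.1, 25.7 and 20.7 points in order along the chromosome, and each was higher on both strands. At Gm51701 a run of 2 windows was at 60.1% in Control and 2.95% in KI over 31 positions, with 9158 reads in Control and 1881 in KI. The part of that difference in reads in the result was not tested.

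The run at Rfx8 went from 6.53 to 35.9% over 31 positions. Kcnn1 went from 4.46 to 34.5%, on 10 positions with 153 and 233 reads. Among the runs that come next in size, picked after their values were seen, Lhcgr, the luteinizing hormone receptor, went from 35.3 to 6.51% and Fgfr3, a fibroblast growth factor receptor, from 18.0 to 37.8%. Sema6b, a semaphorin, went from 69.0 to 84.7% over 69 positions.

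No window of Idh1, Idh2, Tet1, Tet2, Tet3, Dnmt1, Dnmt3a or Dnmt3b was called. The 2 windows of Idh1, at its start, differed by -6.34 and 0.627 points, from levels of 8.23% and 0.962% in Control. Dnmt3a, a de novo methyltransferase, had 4 start windows with 227 positions, at 2.57% in Control and 1.80% in KI. Tet2, an enzyme that oxidises 5-methylcytosine, was at 1.16 and 1.77% over 80 positions. Tet3 ranged from -4.74 to 2.78 points over 6 windows. In the list of 24 measured genes of methylation and IDH enzymes, 0 of 52 windows were higher and 1 was lower (1.92%, beside 2.05% over all windows), and a start window under 5% in both libraries cannot reach 10 points. The other 2-oxoglutarate-dependent dioxygenases had 4 higher and 0 lower of 100 windows, close to the shares of all windows (4.24 and 2.05%). They were Kdm6b, an H3K27 demethylase, with 2 windows (8.50 to 31.9% and 32.9 to 43.7%), Kdm2b (0 to 16.1%, on 1 strand with 90 and 89 reads, where 3 reads would be 3.33%) and the prolyl hydroxylase P3h3 (69.9 to 84.7%).

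Stem cell regulators had 10 higher and 1 lower of 121 windows (8.26 and 0.826%), beside 4.24 and 2.05% over all windows. Their median difference was 0.471 points against 0 over all windows. The higher ones lay in the gene bodies of Prdm16, Msi2, Gfi1, Gata2, Cbfa2t3 and Esam, and 1 more near the start of Cbfa2t3. Prdm16, a zinc finger factor that maintains stem cells, accounted for 4 of the 10, at distances of 9373 to 211373 bases from its start. Gfi1, a transcriptional repressor, had the most positions, 31, and went from 10.6 to 30.9%, mostly on the reverse strand (29.6 against 5.52 points). Its difference was 6.14 points at the 21 positions with a coverage of at least 20 and 3.79 with both strands of each CpG summed. Msi2, an RNA-binding protein, went from 16.8 to 40.9% and Gata2, a zinc finger factor, from 44.0 to 66.5%. Cbfa2t3, a co-repressor, went from 0.833 to 24.5% on 116 and 148 reads. The lower window, in Vwf, the von Willebrand factor gene, was at 65.1 and 48.7% as a mean of positions and at 60.4 and 60.9% pooled over reads, so its difference depended on the weighting. At a coverage of at least 20 reads the 4 Prdm16 windows differed, in order along the chromosome, by -0.744, 2.56, 25.7 and 8.43 points, on 3 or 4 positions each.

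Among lineage genes, the myeloid list had 0 calls in 32 windows, the erythroid and megakaryocyte list 2 higher of 41 (4.88%) and the lymphoid list 5 higher and 1 lower of 80 (6.25 and 1.25%), beside 4.24 and 2.05% over all windows. Ank1, the erythrocyte ankyrin, went from 9.60 to 27.9% and Zfpm1, a GATA1 cofactor, from 8.50 to 22.0%. Runx3, a RUNX factor of T cells, went from 0 to 25.9% in a window read on the forward strand alone. Of its 126 Control reads, summed over 6 positions, 0 were methylated, and 3 reads would be 2.38%. This is not an upper limit, because 1 read can count at several positions. Eomes and Id2 were higher by 11.99 and 10.6 points. Tcf7, a T cell factor, differed in both directions near its start: a window with 23 positions went from 5.35 to 15.6%, and one with 5 positions and 107 and 127 reads from 44.9 to 12.1%. Genes of endothelial and stromal cells had 3 higher of 30 windows (10%, beside 4.24% over all windows). These were at Lepr (0 to 26.0%, on 73 and 50 reads, where 3 Control reads would be 4.11%), Pdgfrb (69.9 to 85.9%) and Sp7 (11.5 to 21.9%).

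Imprinted genes are methylated on 1 parental copy, and of the 15 lists theirs had the largest share of calls, equal in both directions. The called Impact window, a fall named above, is not counted in that list. Of 88 windows, 9 were higher and 9 lower (10.2% each), beside 4.24 and 2.05% over all windows. Of the 88, 33 were partly methylated, of which 9 were higher and 7 lower. Over all 30570 windows 2242 were partly methylated, of which 31.31% were higher and 12.04% lower. The imprinted list was thus richer in partly methylated windows, and the part of level in its share of calls was not tested. Cdkn1c, a cyclin-dependent kinase inhibitor, had 2 neighbouring higher windows with 70 positions in all, at 17.8% in Control and 41.0% in KI. Pooled over reads both differed by under 10 points, the first going from 24.0 to 31.1% and the second from 35.1 to 39.7%, and at the 9 of 21 positions with a coverage of at least 20 the second was at -1.19 points. The window shared by Peg13 and Trappc9 was at 33.9 and 65.5% as a mean and at 41.4 and 46.6% pooled over reads. Nap1l5 (30.5 to 46.5%) and the window at the start of Igf2r, shared with Airn (35.6 to 46.4%) were higher, and Mest (49.8 to 32.8%) was lower. The strands of the last 2 went in opposite directions, with 30.9 points on the forward and -17.3 on the reverse strand at Igf2r, and 1.09 and -35.1 points at Mest.

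At Zrsr1 and Commd1, 3 adjacent windows differed by 21.1, -11.6 and -15.3 points, and at Gnas 3 windows by -16.4, 21.2 and -11.2. The first Gnas window was at -39.0 points on the forward and 11.9 on the reverse strand. The third was at 0.502 points at the 16 of 20 positions with a coverage of at least 20 and at 0.998 pooled over reads. In the germline list, Ddx4 was the sole call in 31 windows (3.23% higher, beside 4.24% over all windows). The list of tumour suppressors and WNT inhibitors had 4 higher and 1 lower of 106 (3.77 and 0.943%), beside 4.24 and 2.05% over all windows. Its largest difference was at Spred2, an inhibitor of Ras signalling (10.6 to 51.6% over 6 positions in the gene body). Cdh1, the epithelial cadherin, went from 79.2 to 100% on 215 and 201 reads, with 34.6 points at its 3 forward positions, and 0 at its 2 reverse positions and at the 2 with a coverage of at least 20. Cxxc5 went from 20.7 to 42.0%, with 8.84 points at the 3 of 6 positions with that coverage. Genes of the DNA damage response had 0 higher and 2 lower of 74 windows (0 and 2.70%, beside 4.24 and 2.05% over all windows). The 2 were Tonsl (17.5 to 3.28%) and Gadd45g (13.8 to 2.49%). Polycomb and Trithorax genes had 0 and 2 of 78, both in Kmt2d, and their lower share (2.56%) was likewise close to 2.05%. The interferon list had 0 and 1 of 15 (6.67% lower, beside 2.05% over all windows), at Oasl1. The Oasl1 window stood at 34.1 and 17.2% as a mean and at 14.2 and 12.01% pooled over reads. It differed by 1.67 points at the 6 of 10 positions with a coverage of at least 20.

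Hox genes encode the homeobox factors of body axis and blood progenitor identity. Their list had 8 higher and 4 lower of 110 windows (7.27 and 3.64%, beside 4.24 and 2.05% over all windows). The largest difference was at Hoxa5, in a window on chromosome 6 from 52203001 to 52204000, with 26.3% in Control and 66.3% in KI over 18 positions. Its strands were alike, at 39.5 and 41.2 points. A window shared by Hoxa3 and Hoxa4 held 75 positions on 4008 and 4643 reads and went from 4.73 to 20.8%, with 19.2 points on the forward and 12.5 on the reverse strand. The adjacent window, by lower coordinates, went from 89.8 to 77.0%. Hoxb1 went from 24.3 to 52.0% and Hoxb3 from 69.7 to 91.5%, while Hoxb9 went from 10.8 to 0.476%. At Hoxc6, adjacent windows went from 40.9 to 16.9% and from 17.9 to 41.0%, the second with 73 KI reads and a difference of -18.7 points at the 2 of its 5 positions with a coverage of at least 20. The other homeobox and PAX genes had 7 and 4 of 401 windows (1.75 and 0.998%), among them Lmx1b (59.2 to 74.2%) and Pitx1 (18.6 to 1.88%). Over all 15 lists the median difference lay between -1.07 and 0.946 points.

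ST-HSC and MPP libraries are separate from those of LT-HSC and give the same windows, at the positions covered in both genotypes of each cell type. Of the 1140 higher windows measured in ST-HSC, 505 were also at least 10 points higher in KI (44.3%) and 16 lower, against 5.59% higher and 0.686% lower over all windows. In MPP, 352 of 1021 were higher (34.5%) and 62 lower, against 5.56 and 1.6% over all. Partly methylated windows without a call in LT-HSC were higher in 34.4% in ST-HSC and 31.0% in MPP, in MPP close to the share of the higher windows. Of the 1295 higher windows 702 were partly methylated, so these groups are not matched in level. Whether 1 pool of mice gave all 3 cell types is not stated by the labels.

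In the other cell types the lower windows were more often higher in KI than lower. Of 524 measured in ST-HSC, 30 were lower (5.73%) and 107 higher (20.4%), and of 473 in MPP, 40 were lower (8.46%) and 102 higher (21.6%). Their shares of lower calls lay above those of all windows (0.686 and 1.6%), and beside 3.25 and 9.63% of partly methylated windows without a call in LT-HSC. Their median difference was 2.78 points in ST-HSC and 1.98 in MPP, with the sign opposite to that in LT-HSC. Medians were also above 0 over all windows (0.748 and 1.19) and in partly methylated windows without a call (6.605 and 4.01). Over all windows 5.59 and 5.56% were higher, and of partly methylated windows without a call 34.4 and 31.0%. Over the 371 lower windows covered in all 6 libraries, the median LT-HSC level was 63.1% in Control and 45.6% in KI. The medians for ST-HSC were 52.8 and 59.9%, and those for MPP 58.9 and 63.7%. Over the 873 higher windows, the LT-HSC medians were 35.0 and 56.1%, the ST-HSC medians 42.6 and 59.5%, and the MPP medians 48.4 and 61.6%. In 537 of these 873 windows Control LT-HSC lay below all 4 other libraries, and in 313 KI LT-HSC lay above all 4. Selection on the LT-HSC difference favours such extremes, so these counts are a description.

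**Figure D3:**
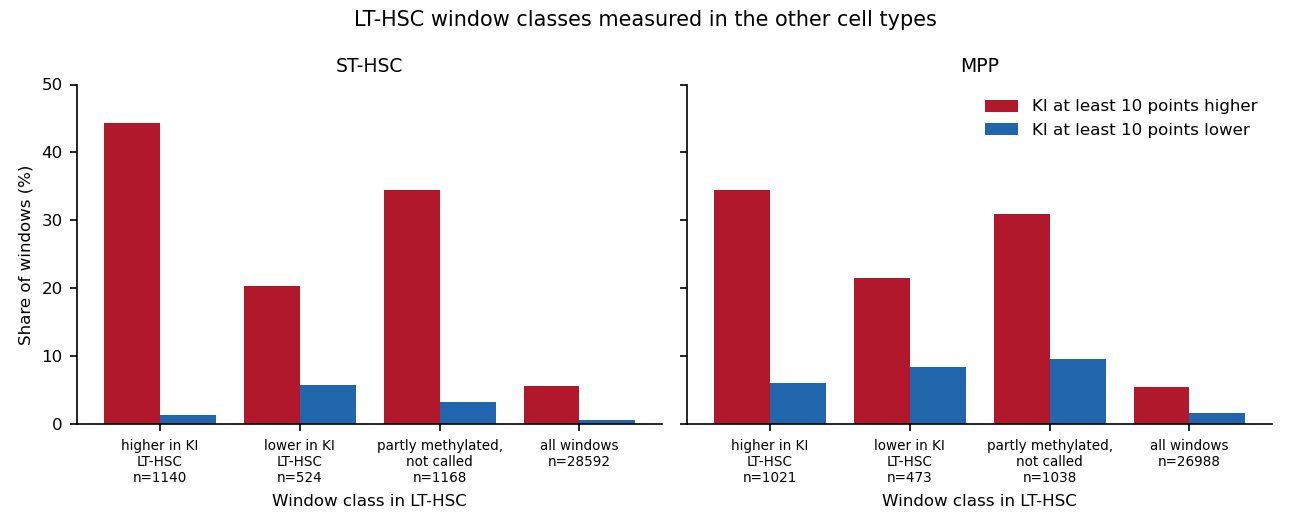
Share of windows (percent, vertical axis) at least 10 points higher (red) or lower (blue) in KI ST-HSC (left) and KI MPP (right), for windows higher or lower in KI LT-HSC, partly methylated windows without a call there, and all windows; n is the number of windows measured in each cell type. Windows that were higher in LT-HSC reach 44.3% in ST-HSC and 34.5% in MPP, and every class has taller red than blue bars in both.

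The 12 largest rises were above 0 in ST-HSC in 12 of 12 and at least 10 points higher in 11. In MPP 10 of 11 measured were above 0, 6 by at least 10 points, and Dclk1 was lower (74.5 to 60.3%). Dedd2 was at 32.0 and 66.2% in ST-HSC, and at 23.4 and 61.7% in MPP, levels close to those of LT-HSC. Camk2g was at 26.6 and 69.1% in ST-HSC and, with a higher Control, at 60.1 and 70.8% in MPP. Ltbp3 showed the same order, with Control levels of 24.1, 62.4 and 86.9% for LT-HSC, ST-HSC and MPP beside 73.1, 92.0 and 94.3% for KI. These Ltbp3 means are over 8, 5 and 13 positions, with 5 covered in all 6 libraries, so the cell types are not compared at the same positions. The window shared by Hoxa3 and Hoxa4 was at 5.52 and 34.0% in ST-HSC and at 8.05 and 35.7% in MPP. At Hoxa5 the levels were 35.0 and 83.2% in ST-HSC, and those in MPP 86.0 and 89.3%, so that both genotypes were high there. The Hoxa5 means are over 18, 6 and 14 positions for LT-HSC, ST-HSC and MPP, with 6 covered in all 6 libraries. Gfi1 was higher in both, at 24.9 and 43.6% in ST-HSC, and at 61.6 and 72.9% in MPP.

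Of the 11 falls reported, 2 were at least 10 points lower in ST-HSC (Asb4 and Fignl2) and 1 in MPP (Impact). In each cell type 7 of 11 were above 0, near the share of all windows (64.75% in ST-HSC and 67.08% in MPP). Fignl2 had 16, 5 and 32 positions in LT-HSC, ST-HSC and MPP, with 2 covered in all 6 libraries. Asb4 was at 34.6 and 6.06% in ST-HSC, and at 20.1 and 10.5% in MPP. Mest, an imprinted hydrolase gene, was also lower in both, at 56.7 and 39.4% in ST-HSC, and at 47.1 and 32.2% in MPP. The window at the Kcnq1ot1 start was at 35.5 and 35.6% in ST-HSC, and at 46.4 and 45.2% in MPP, beside 6.38% in KI LT-HSC. These are means over 11, 19 and 9 positions for LT-HSC, ST-HSC and MPP, which are not the same ones. Zfp760, with 10, 17 and 8 positions, was at 32.8% in Control LT-HSC and at 2.72 to 9.30% in the other 5 libraries, but at the 2 positions covered in all 6 its LT-HSC difference was -2.79 points. Ddx4 was at 74.3% in Control LT-HSC and at 88.4 to 95.2% in the other 5 libraries, and its LT-HSC difference at the 35 positions covered in all 6 was 14.7 points. The Cdkn1c window with 49 positions was at 32.9 and 31.1% in ST-HSC, and at 18.97 and 37.9% in MPP.

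**Figure D4:**
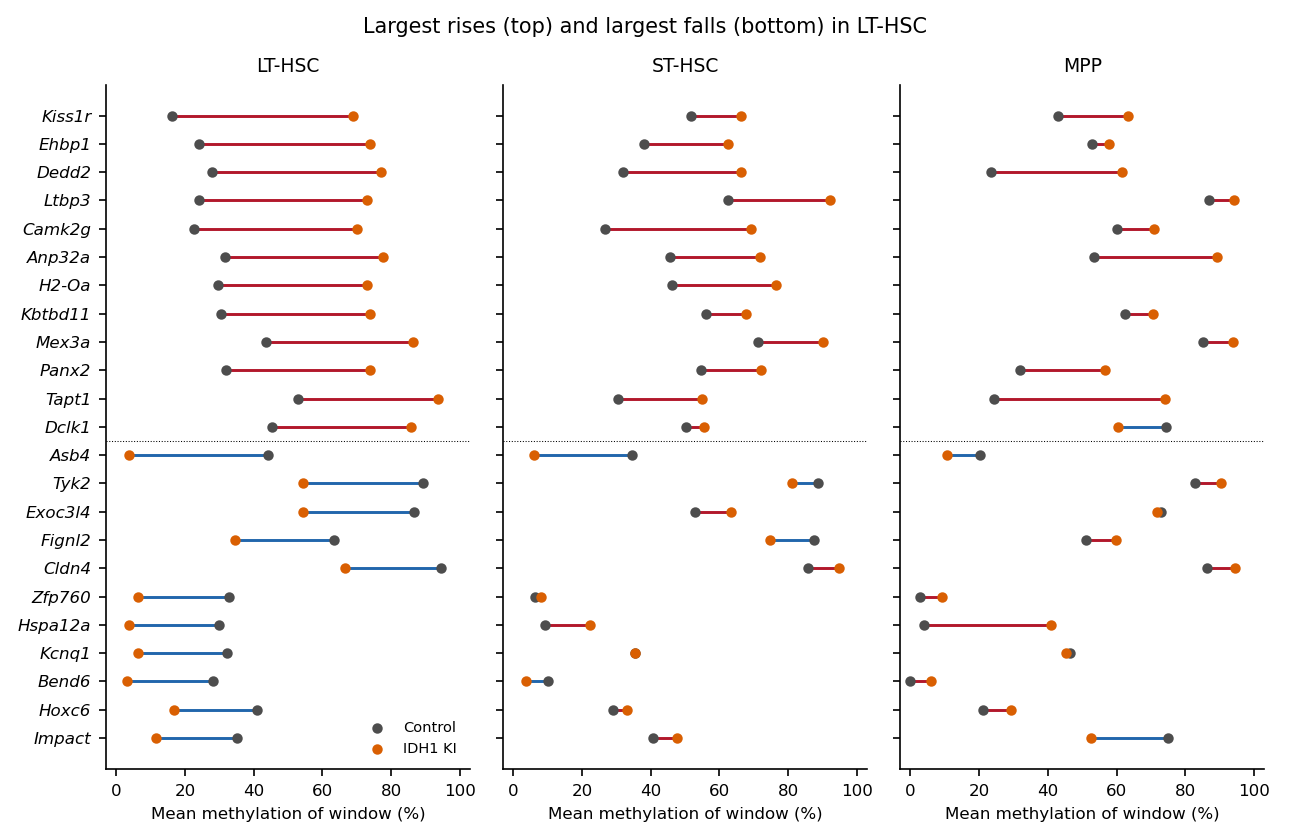
Mean methylation level (percent, horizontal axis) of the windows with the 12 largest rises (above the dotted line) and 11 of the 12 largest falls (below it) near protein-coding genes, by cell type; grey points are Control, orange points KI, and joining lines are red where KI is higher and blue where it is lower. The rises stay red in 12 of 12 windows in ST-HSC and 10 of 11 in MPP, while 7 of 11 falls are red in each. Over all windows, 64.75% were above 0 in ST-HSC and 67.08% in MPP.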

How the data were processed

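Each library was 1 pool of 6 mice, made from 10 ng of DNA with fragments of 150 to 400 bp, per the labels' protocols. Per the submitters' processing notes, the authors used Bismark 0.10.0, SAMtools 1.0, methylKit 0.9.1 and mm10. The labels do not state duplicate removal or the conversion rate. Coverage was deposited as a count of reads for each position and strand, and methylation as the percent of reads showing C or T, per the file headers. Methylated reads were coverage times percent C. Reads of a window or promoter are coverage summed over its positions, so a read that spans several positions counts at each. Window levels are unweighted means of position levels, computed with Python 3.11.15, pandas 2.3.3, numpy 2.4.6 and scipy 1.17.1, and the window calculation was tested on simulated data. Gene places used 33073 RefSeq genes, of which 25748 have a listed start; chromosome 18 has none in that table and was left out of the places. A window belongs to a gene within 1000 bases.

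Named were the 12 largest rises and falls in windows of protein-coding genes with at least 200 reads per library, at least 2 positions per strand and 1 direction on both strands. Named too were up to 3 called windows per gene list, the 5 longest runs, 8 genes of methylation and IDH enzymes, and 5 rises and 5 falls not covered in all libraries. Members and lists were chosen with earlier results of these data known. Other called list members were chosen after their values were seen. Results for 4 genes are not reported here.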

Additional observations from a re-analysis of the deposited data

Results flagged for a closer look

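In 5 windows that the text names, KI LT-HSC differed from Control by at least 10 points in 1 direction, while KI ST-HSC and KI MPP differed by at least 10 points in the other. Over all called windows covered in all 6 libraries, 32 of 371 lower and 1 of 873 higher windows were opposite in both other cell types in this way. These differences between cell types were not tested, since each value compares 2 single libraries. The window of Tcf7 near its start stood at -32.7 points in LT-HSC, against 13.4 and 23.3 in ST-HSC and MPP, and Hspa12a at -26.2, 13.2 and 36.8. Vwf stood at -16.4, 19.8 and 11.5 points in the same order, and Mkrn3, an imprinted gene, at -11.54, 11.1 and 10.02. In the other direction, the gene body window of Gnas, on 181 KI reads in LT-HSC, stood at 21.2, -41.8 and -11.3 points. The LT-HSC difference of Vwf was 0.490 points pooled over reads, and that of Mkrn3 1.32 points at a coverage of at least 20. Tcf7, Hspa12a and this Gnas window kept their direction under both settings.

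Outside the autosomes, the mean of the 316 positions on chromosome Y was 1.07 points higher in KI LT-HSC than in Control (89.9% and 91.02%).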

How the results depend on the processing

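The mean difference over positions (0.2002 points) turned to -3.97 points when pooled over reads. It was 0.182 at a coverage of at least 20, 0.128 with both strands of a CpG summed and 0.0252 with common weights. Higher and lower windows numbered 791 and 315 at a coverage of at least 20, 316 and 112 with at least 10 positions, 549 and 335 on the forward strand, 573 and 346 on the reverse strand, 75 and 20 with strands summed, and 346 and 116 at 20 points. Lower windows alone moved when every position was thinned to 10 reads (994) and at positions covered in all 6 libraries (403). Under each of these settings higher windows outnumbered lower ones. The median difference of partly methylated windows (4.02 points) was 4.44 at a coverage of at least 20, 4.20 with at least 10 positions, 3.38 pooled over reads, 2.98 on the forward and 4.30 on the reverse strand, 5.41 with strands summed, 4.30 at positions in all 6 libraries, 4.65 in windows of 500 and 3.36 in windows of 2000 bases, and 3.44 when chosen by the 4 other libraries. With 10 points and a Fisher exact test of the reads of 2 libraries (adjusted p under 0.01), 1009 windows were higher and 461 lower. That test takes the reads as independent and covers counting error in these 2 libraries only, so it is not a test between genotypes.

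Of 774 recalculated differences of 106 named or listed windows, 748 kept their direction, 5 were 0 (Cdh1 at a coverage of at least 20 and on the reverse strand, Pitx1 on the forward strand and at positions in all 6 libraries, Blcap on the reverse strand) and 21 turned. Those that turned, at a coverage of at least 20, were Oasl1 (1.67 points), Prdm16 (-0.744), Gnas from 174328001 (0.502, also at positions in all 6 libraries), Mkrn3 (1.32), Cdkn1c from 143460001 (-1.19, also at positions in all 6 libraries), Stk11 (7.61), Hoxc6 from 103012001 (-18.7) and Barhl2 (-0.519). Pooled over reads, Vwf (0.490), Blcap (4.596) and Gnas from 174328001 (0.998) turned. On the forward strand Mest (1.09), Stk11 (3.08) and Barhl2 (-0.519) turned, on the reverse strand Vwf (2.72), Igf2r (-17.3), Gnas from 174285001 (11.9) and Mkrn3 (6.04), and with strands summed Peg12 (-4.93). Single windows were recalculated on whatever positions were left, which at a coverage of at least 20 were 2 at Hoxc6 and 3 at Stk11 and Barhl2. The causes were not tested. Read counts overstate precision where they hold copies of 1 molecule or reads counted at several positions.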

Other observations

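On chromosome X, which the comparison left out, LT-HSC averaged 28.3% in Control and 28.2% in KI over 10747 positions, and of 572 windows 21 were higher and 21 lower in KI. On chromosome Y 2 of 17 windows were higher and 0 lower. Over all autosomal windows 4.24% were higher and 2.05% lower.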
